A study of Mus musculus with 16 samples.

Results

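The Cyp2c cytochromes are the genes of 1 subfamily of microsomal cytochrome P450 enzymes, and 10 of them were examined by name, namely Cyp2c29, Cyp2c37, Cyp2c38, Cyp2c39, Cyp2c44, Cyp2c50, Cyp2c54, Cyp2c55, Cyp2c65 and Cyp2c70. Probes were assigned to them through the RefSeq accession that the array gives each probe. Of the 10 genes, 9 had a probe, out of 19096 genes with a named probe on the array, and 13304 of these genes were tested. Cyp2c37 and Cyp2c38 had 2 probes each and the other 7 genes had 1, which gave 11 probes. No probe matched Cyp2c50 by accession. All 11 probes were well above background on all 16 arrays, so none entered the tests through a single group. Cyp2c44 is listed as Cyp2c23 in the RefSeq table.

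CYP2C enzymes are haem monooxygenases of the endoplasmic reticulum that take electrons from cytochrome P450 reductase. They hydroxylate drugs and steroids, and several of them turn arachidonic acid into epoxides or hydroxy acids that act as lipid signals. In mouse liver many Cyp2c genes are known targets of the constitutive androstane receptor (CAR, the product of Nr1i3), the nuclear receptor that phenobarbital activates, and some of them are also under the sex-dependent pattern of growth hormone.

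Liver RNA of 16 male mice was labelled with Cy3 and hybridised to 16 Agilent mouse expression arrays, with 1 mouse per array and 4 mice in each of 4 groups. WT mice were C57BL/6J and KO mice carried the Gadd45b tm1Flv null allele, in a stock whose name in the study's methods also holds a second inbred strain, although the study elsewhere describes both genotypes as being on C57BL/6J. Every mouse of all 4 groups, the DEN groups included, had received 1 dose (90 mg/kg) of the hepatocarcinogen diethylnitrosamine (DEN) when 5 weeks old. The DEN + PB groups also drank phenobarbital (PB, 0.5 g/l) from 7 weeks of age, the DEN groups drank plain water, and livers were taken at 57 weeks from regions without tumour, so the readout is that of long exposure. The null allele is present in all cells of the KO mice, and effects of the genotype and of the strain background cannot be told apart here. Both Gadd45b probes were well above background on all 8 WT arrays and on 0 of 8 KO arrays.

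Between 58.3% and 67.7% of spots on an array were well above background, no spot was saturated, and the 75th percentile of the processed signal ran from 137 to 294. The 4 hepatocyte markers with a probe (Alb, Ttr, Apoa1 and Fga) were above background on all arrays. Signals are given below as relative signal, the processed signal of a probe divided by the 75th percentile of its array, and changes are on the log2 scale of that quantity with the standard error (SE) of the fit. Called means that the adjusted p was below 0.05 and that the probe changed at least 1.5-fold. Relative signals of different probes cannot be ranked against each other, since each probe binds with its own strength.

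The Cyp2c genes lie on chromosome 19, in the order Cyp2c55, Cyp2c65, Cyp2c29, Cyp2c39, Cyp2c38, Cyp2c37, Cyp2c54, Cyp2c50 and Cyp2c70, with Cyp2c44 as the last and apart from the cluster. Genes are ordered by their lowest position. Cyp2c39 has 2 starts, whose upstream windows lie on either side of that of Cyp2c38. An upstream sequence was given for 8 of the 10 genes, and Cyp2c54 and Cyp2c44 had none. The 250 bases before the start are shown for 5 of them, in lower case and 5′ to 3′ on the strand of the gene, to set the genes with the largest PB changes (Cyp2c55 and Cyp2c65) beside a gene with a small one (Cyp2c29) and genes that were not called (Cyp2c38 and Cyp2c70). Sequences and positions are those of RefSeq on GRCm38.p6. Capitals mark matches, on either strand, to TATAAA, the core promoter box, and to AGGTCA and AGTTCA, the half-sites that CAR and other nuclear receptors bind in pairs. The windows are chr19:39006769-39007018 (plus strand), chr19:39060756-39061005 (plus), chr19:39286835-39287084 (plus), chr19:39463076-39463325 (minus) and chr19:40187287-40187536 (minus).
Cyp2c55: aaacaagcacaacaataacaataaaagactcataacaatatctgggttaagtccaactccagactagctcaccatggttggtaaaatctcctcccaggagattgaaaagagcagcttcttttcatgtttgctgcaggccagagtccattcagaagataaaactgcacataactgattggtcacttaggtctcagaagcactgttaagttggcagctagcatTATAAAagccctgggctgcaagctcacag
Cyp2c65: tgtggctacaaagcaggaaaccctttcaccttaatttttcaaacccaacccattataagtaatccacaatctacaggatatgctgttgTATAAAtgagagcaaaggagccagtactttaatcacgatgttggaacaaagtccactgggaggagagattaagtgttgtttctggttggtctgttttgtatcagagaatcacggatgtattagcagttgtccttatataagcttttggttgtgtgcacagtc
Cyp2c29: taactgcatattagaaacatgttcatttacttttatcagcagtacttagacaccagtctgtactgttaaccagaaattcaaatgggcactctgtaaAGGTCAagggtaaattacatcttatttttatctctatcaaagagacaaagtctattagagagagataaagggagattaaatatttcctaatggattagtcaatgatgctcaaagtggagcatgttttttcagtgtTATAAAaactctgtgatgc
Cyp2c38: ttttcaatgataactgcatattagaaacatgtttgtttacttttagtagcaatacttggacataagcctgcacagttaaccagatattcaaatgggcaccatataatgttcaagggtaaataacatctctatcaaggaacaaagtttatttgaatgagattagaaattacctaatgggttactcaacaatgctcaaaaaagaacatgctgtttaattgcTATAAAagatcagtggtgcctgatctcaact
Cyp2c70: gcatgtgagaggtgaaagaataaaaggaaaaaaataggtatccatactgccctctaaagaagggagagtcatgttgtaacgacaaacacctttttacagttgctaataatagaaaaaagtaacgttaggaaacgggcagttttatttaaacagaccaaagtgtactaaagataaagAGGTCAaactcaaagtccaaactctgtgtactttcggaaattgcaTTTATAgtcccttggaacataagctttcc

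AGGTCA occurred 154 to 149 bases before the start of Cyp2c29, 74 to 69 bases before that of Cyp2c70, and also in 1 of the windows of Cyp2c39. It was not found in those of Cyp2c55, Cyp2c65, Cyp2c37, Cyp2c38 or Cyp2c50. Of the 9 upstream windows of the 8 genes (Cyp2c39 has 2 starts), 3 held AGGTCA, 2 held AGTTCA and 5 held TATAAA, against 14.0%, 11.8% and 12.4% of the 32851 windows of this length in the table. No match overlapped another. TATAAA lay 29 to 24 bases before the start in Cyp2c55, 31 to 26 in Cyp2c38 and 19 to 14 in Cyp2c29. In Cyp2c70 it was read on the opposite strand, 29 to 24 bases before the start, and in Cyp2c65 it lay farther off, at 162 to 157. The closest pair of windows was Cyp2c37 and Cyp2c50, at 84.3% identity, and the windows of Cyp2c29 and Cyp2c38 shared 68.8% of aligned positions while the first gene was called in both genotypes and the second in neither.

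Cyp2c55 and Cyp2c65 had the largest rises with PB among the 11 probes, from 17.8-fold to 24.6-fold. Cyp2c55 makes hydroxy acids from arachidonic acid, and both genes are best known from the gut. Relative signals of Cyp2c55 in WT were 2.25, 1.35, 1.08 and 1.69 under DEN and 32.6, 40.9, 35.7 and 23.1 under DEN + PB. The KO arrays gave 1.76, 1.32, 2.10 and 1.80 under DEN and 39.8, 34.9, 23.6 and 27.1 under DEN + PB. Every DEN + PB array lay above every DEN array of its genotype, and within each treatment WT and KO arrays overlapped. The log2 change was 4.40 ± 0.24 in WT (21.1-fold, adjusted p = 9.65e-08) and 4.16 ± 0.24 in KO (17.8-fold, adjusted p = 1.15e-07, limma, n = 4 arrays per group). In these bulk livers, a change in the number of cells of a type and a change in RNA per cell cannot be told apart.

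Cyp2c65 was dim without PB and rose on all 8 DEN + PB arrays. In WT the relative signals were 0.119, 0.030, 0.0898 and 0.0507 under DEN and 1.26, 3.43, 1.63 and 0.856 under DEN + PB. Those of KO were 0.0488, 0.0648, 0.0638 and 0.0419 under DEN and 3.03, 0.836, 1.34 and 0.751 under DEN + PB. The groups with and without PB did not overlap, and 1 PB array of each genotype stood above 3. The log2 change was 4.62 ± 0.49 in WT (24.6-fold, adjusted p = 5.53e-05) and 4.55 ± 0.49 in KO (23.4-fold, adjusted p = 6.07e-05). The size of this change was smaller with normexp on the median spot signal, at 1.83 in WT (adjusted p = 0.058, no call) and 2.30 in KO (adjusted p = 0.00364). Without spots whose local background was marked as an outlier, normexp gave 2.50 in WT (adjusted p = 0.000127) and 2.31 in KO (adjusted p = 0.00022), both called. The cause of the smaller size was not tested. Of 6 markers of intestinal epithelium, Lct and Cdx2 were above background on no array and only 1 passed the filter, Fabp2, named after its values were seen (log2 change -0.70 in WT and -0.04 in KO, not called).

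**Figure D1:**
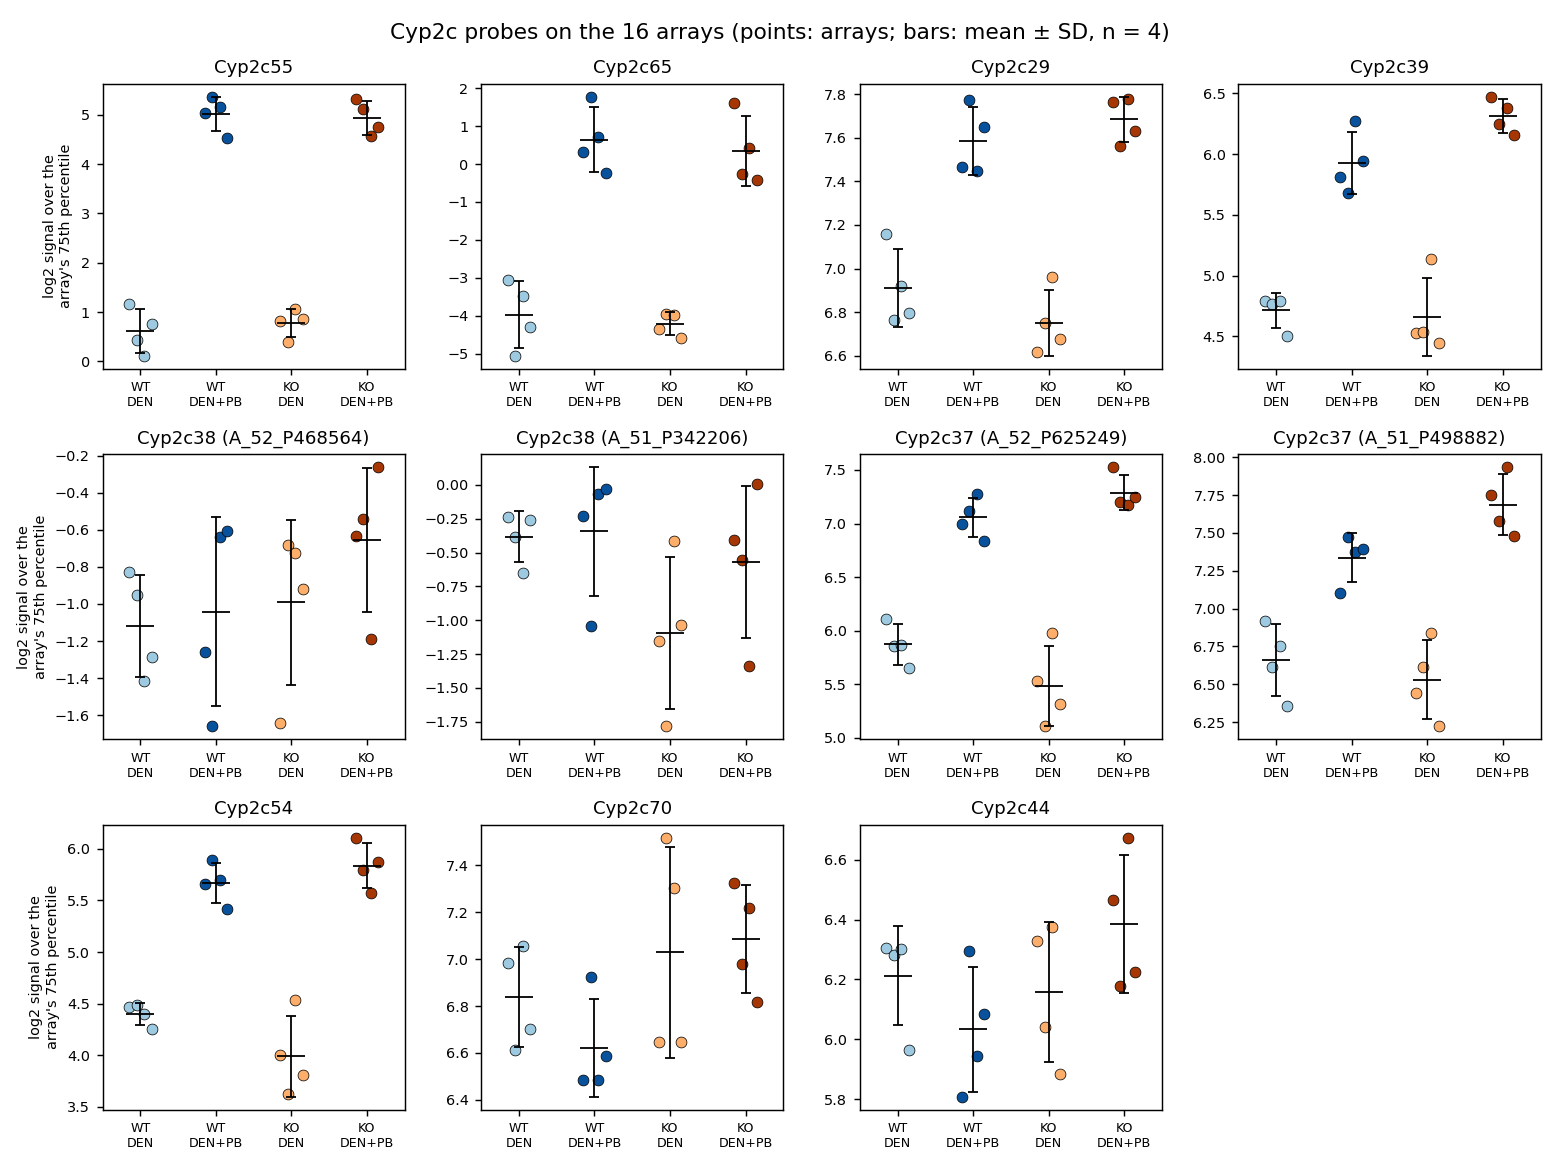
Log2 relative signal (processed signal over the array's 75th percentile) of the 11 Cyp2c probes on the 16 arrays, by genotype and treatment, 1 point per array with the mean and SD of 4. The DEN + PB points of Cyp2c55, Cyp2c65, Cyp2c29, Cyp2c39, Cyp2c54 and both Cyp2c37 probes lie above all DEN points of the same genotype, and those of Cyp2c38, Cyp2c70 and Cyp2c44 do not.

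Cyp2c39, Cyp2c54 and Cyp2c37 rose by about 2- to 4-fold, depending on the probe and genotype. Cyp2c39 is an arachidonic acid epoxygenase that also hydroxylates retinoic acid. Its relative signals in WT were 27.7, 27.2, 27.7 and 22.6 under DEN and 56.2, 51.3, 77.5 and 61.7 under DEN + PB. On the KO arrays they stood at 23.0, 23.2, 35.2 and 21.7 under DEN and 88.9, 75.9, 83.4 and 71.2 under DEN + PB. Both genotypes separated fully by treatment, with log2 changes of 1.22 ± 0.17 in WT (adjusted p = 0.00128) and 1.65 ± 0.17 in KO (adjusted p = 4.87e-05).

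Cyp2c54, a close relative of Cyp2c37 and Cyp2c50, rose in both genotypes. In WT its relative signals were 22.2, 22.4, 21.1 and 19.0 under DEN and 50.6, 59.4, 51.7 and 42.7 under DEN + PB. KO values were 16.1, 12.3, 23.1 and 14.0 under DEN and 69.0, 55.6, 47.6 and 58.5 under DEN + PB. The log2 change was 1.26 ± 0.18 in WT (adjusted p = 0.00157) and 1.85 ± 0.18 in KO (adjusted p = 2.96e-05), again without overlap.

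Cyp2c37, which makes a hydroxy acid from arachidonic acid, was read by 2 probes that differed in size and, in WT, in the call. For probe A_52_P625249 the relative signals in WT were 69.2, 57.9, 58.2 and 50.3 under DEN and 128, 139, 155 and 114 under DEN + PB. KO arrays gave 46.1, 34.5, 63.1 and 39.8 under DEN and 184, 147, 144 and 152 under DEN + PB. This probe rose by 1.19 ± 0.18 in WT (adjusted p = 0.00225) and 1.80 ± 0.18 in KO (adjusted p = 2.96e-05). Probe A_51_P498882 gave 121, 97.9, 108 and 82.1 under DEN and 138, 178, 166 and 168 under DEN + PB in WT. In KO it gave 87.0, 97.8, 115 and 74.7 under DEN and 215, 191, 245 and 178 under DEN + PB. Its groups did not overlap in either genotype, and the log2 change was 0.68 ± 0.17 in WT, with an adjusted p of 0.101 that missed the threshold, and 1.16 ± 0.17 in KO (adjusted p = 0.00122). The WT value of this probe was called under 2 of 12 alternatives, after quantile normalization (0.82, adjusted p = 0.00353) and with normexp without outlying local backgrounds (0.71, adjusted p = 0.0482). No probe sequence was used here, so whether a probe also binds RNA of a close relative such as Cyp2c50 was not tested.

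Cyp2c29 had the smallest called change. It is an abundant liver epoxygenase of arachidonic acid and an established target of CAR. In WT the relative signals were 143, 109, 121 and 111 under DEN and 177, 219, 175 and 201 under DEN + PB. In KO the values were 98.0, 108, 125 and 102 under DEN and 217, 189, 219.6 and 198 under DEN + PB. The highest DEN array of each genotype lay below its lowest DEN + PB array. The log2 change was 0.67 ± 0.14 in WT (1.60-fold, adjusted p = 0.0278) and 0.93 ± 0.14 in KO (1.91-fold, adjusted p = 0.0014). The WT call did not hold under 7 of 12 alternatives, among them slide as a block (0.66, adjusted p = 0.106), and was lost when WT DEN 2, 3 or 4 or WT DEN + PB 2 or 4 was left out (0.61 to 0.68, adjusted p up to 0.12).

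Cyp2c38, Cyp2c44 and Cyp2c70 were not called in either genotype. Cyp2c38 is an arachidonic acid epoxygenase. Over both of its probes the relative signal ranged from 0.29 to 1.01, and the log2 change was 0.08 ± 0.27 in WT and 0.34 ± 0.27 in KO for probe A_52_P468564, and 0.04 ± 0.31 and 0.53 ± 0.31 for probe A_51_P342206. The 95% intervals of these changes reached from -0.61 to 0.69 in WT and from -0.24 to 1.17 in KO, so the data bound the change only loosely.

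Cyp2c44, an epoxygenase known from liver and kidney, had relative signals of 79.0, 77.7, 78.9 and 62.5 on WT DEN arrays and 56.0, 78.6, 61.6 and 67.8 on WT DEN + PB arrays. For KO they were 80.3, 65.9, 82.9 and 59.1 under DEN and 88.3, 72.5, 102 and 74.8 under DEN + PB. The groups overlapped, with changes of -0.18 ± 0.16 in WT (95% interval -0.53 to 0.17) and 0.23 ± 0.16 in KO (-0.12 to 0.58). Cyp2c70, the enzyme that makes the muricholic acids of mouse bile, had relative signals of 127, 97.9, 133 and 104 on WT DEN arrays and 89.6, 121, 89.6 and 96.3 on WT DEN + PB arrays. The KO values were 100.3, 183, 158 and 100.2 under DEN and 160.1, 126, 149 and 113 under DEN + PB. Its log2 changes were -0.22 ± 0.21 in WT (95% interval -0.65 to 0.22) and 0.06 ± 0.21 in KO (-0.38 to 0.49).

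**Figure D2:**
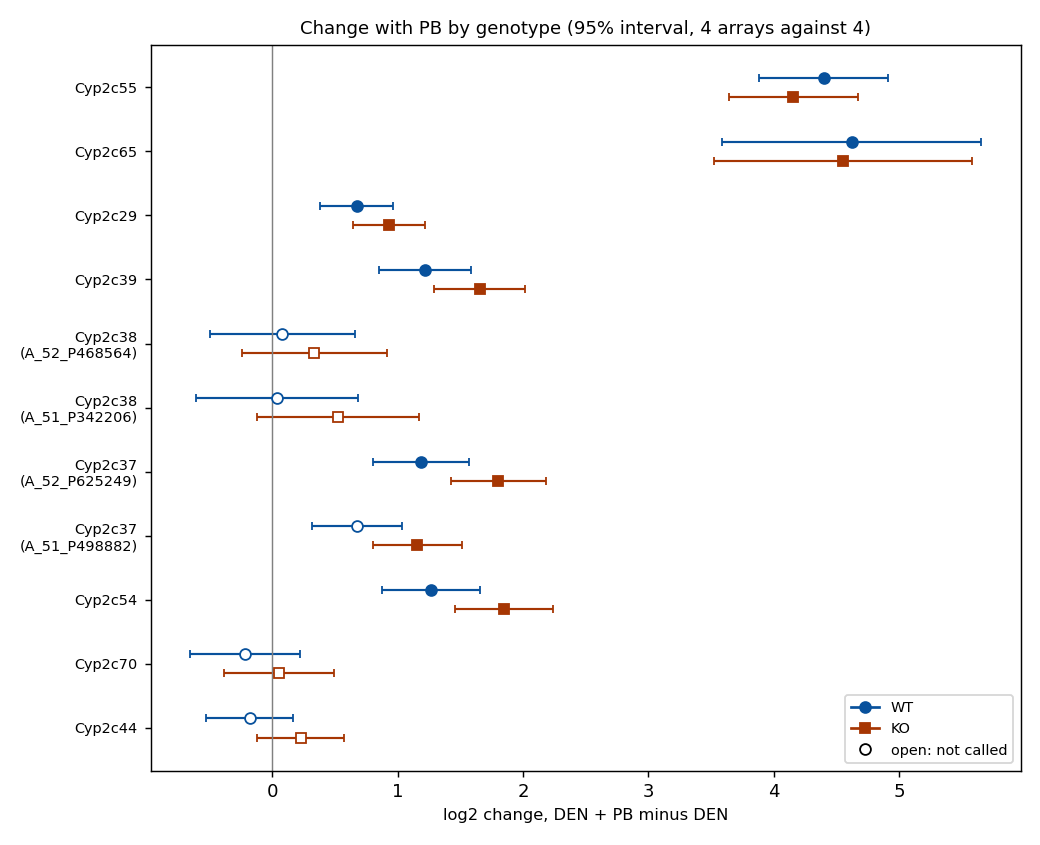
Log2 change with PB (DEN + PB minus DEN) of the 11 Cyp2c probes in gene order along the chromosome, in WT (circles) and KO (squares), with 95% intervals of the fit and filled symbols for called changes. The upper 2 genes, Cyp2c55 and Cyp2c65, stand near 4.5, the called remainder between 0.67 and 1.85, and the intervals of Cyp2c38, Cyp2c70 and Cyp2c44 span 0.

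Counted by probe, 6 of the 11 were called higher after PB in WT and 7 in KO, and none was called lower. Over all 24454 probes tested, 0.589% were called higher in WT and 1.05% in KO. The probes called in WT were those of Cyp2c29, Cyp2c39, Cyp2c54, Cyp2c55, Cyp2c65 and A_52_P625249 of Cyp2c37, and KO added the second Cyp2c37 probe. In each genotype 7 of 11 probes had all 4 DEN + PB arrays above all 4 DEN arrays, against 2.72% of all probes in WT and 3.62% in KO. For each of these 7 the two-sided exact permutation test gave 0.0286, the smallest p that 4 arrays against 4 allow. The median change of the 11 probes was 0.68 in WT and 1.16 in KO, beside -0.02 and 0.00 over all probes tested. The WT count was 1 with normexp (Cyp2c55) and 7 with normexp once spots with an outlying local background were left out. It was 2 on the authors' table without scaling between arrays (Cyp2c55 and Cyp2c65).

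The 16 arrays lay on 4 slides, and both genotypes were compared within slides where a slide held both treatments. In WT that was so on 3 slides and in KO on 3. All probes called in a genotype were higher with PB on each of its 3 slides. Their DEN and DEN + PB arrays did not overlap, so this sign was fixed in advance and is no separate evidence. Each slide value set 1 DEN + PB array against 1 or 2 DEN arrays. Cyp2c55 rose by 3.94 to 4.92 in WT and by 3.60 to 4.36 in KO, Cyp2c65 by 3.81 to 4.85 and 3.53 to 4.70, and Cyp2c29 by 0.54 to 0.87 and 0.88 to 0.96. Cyp2c38 had no steady sign, with values from -0.83 to 0.51 in WT for A_52_P468564.

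The study asks how loss of Gadd45b alters the response to PB, which here is the difference between the PB effect in WT and that in KO. No Cyp2c probe was called for this difference by limma, nor by the linear model without moderation, and 2 of 11 had an unadjusted p under 0.05. Over all 24454 probes tested, 1474 had an unadjusted p under 0.05 for this difference, and 0.00818% were called. The 2 Cyp2c probes under 0.05 were A_52_P625249 of Cyp2c37 (-0.62 ± 0.25, adjusted p = 0.74) and that of Cyp2c54 (-0.58 ± 0.26, adjusted p = 0.796), both with the larger rise in KO. Of the 11 differences, 9 were below 0, which became 11 with normexp (9 without outlying local backgrounds), 10 under quantile or median scaling or with slide as a block, and 6 on the table without scaling, where the median over all probes itself shifted from -0.03 to 0.37. For Cyp2c55 the difference was 0.24, with a 95% interval of -0.49 to 0.97, and for Cyp2c65 it was 0.07 with an interval of -1.39 to 1.53. These intervals bound how unlike the genotypes could have been, and for Cyp2c65 they are wide.

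**Figure D3:**
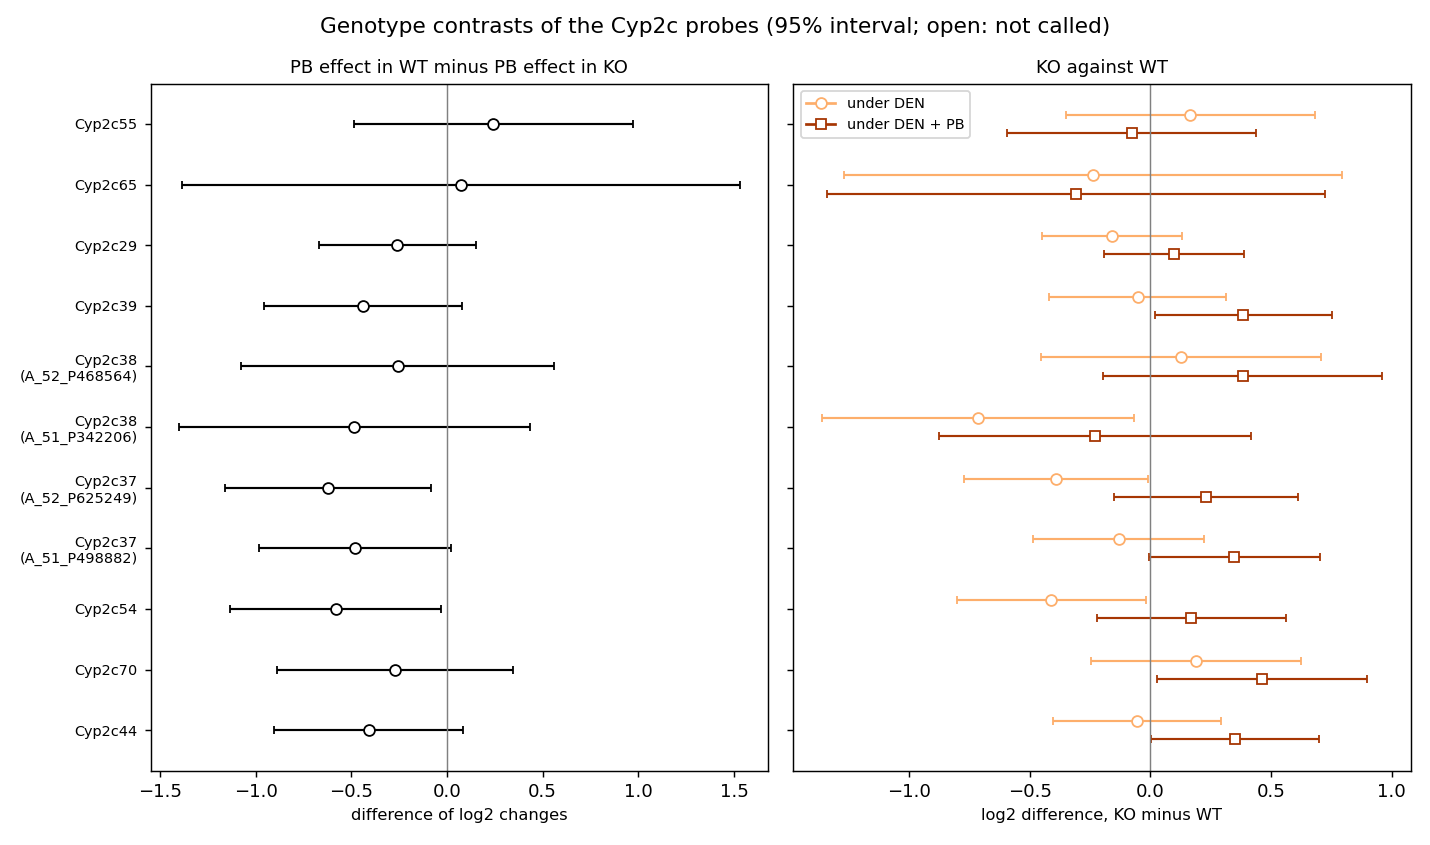
Left, PB effect in WT minus PB effect in KO (difference of log2 changes) for each Cyp2c probe. Right, KO minus WT on the log2 scale under DEN (circles) and under DEN + PB (squares), all with 95% intervals and open symbols because none was called. The intervals of A_52_P625249 (Cyp2c37) and Cyp2c54 lie below 0 on the left.

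Between genotypes at equal treatment, none of the 11 probes of the listed Cyp2c genes was called either. Cyp2c40, which is not on the list, is described below. Under DEN, 3 of 11 had an unadjusted p under 0.05, all lower in KO: probe A_51_P342206 of Cyp2c38 by -0.71 ± 0.31 (adjusted p = 0.201), Cyp2c54 by -0.41 ± 0.18 (adjusted p = 0.224) and probe A_52_P625249 of Cyp2c37 by -0.39 ± 0.18 (adjusted p = 0.236). The other Cyp2c38 probe differed by 0.13 ± 0.27, so the probes of that gene did not share a sign. Over all 24454 probes tested, 4975 had an unadjusted p under 0.05 under DEN, and 3.07% were called. Under DEN + PB, 3 of 11 had an unadjusted p under 0.05, all higher in KO, namely Cyp2c70 (0.46 ± 0.21, adjusted p = 0.192), Cyp2c39 (0.39 ± 0.17, adjusted p = 0.196) and Cyp2c44 (0.35 ± 0.16, adjusted p = 0.213). Over all 24454 probes tested, 5622 had an unadjusted p under 0.05 there, and 6.74% were called. For probe A_51_P498882 of Cyp2c37 alone, all 4 KO arrays lay above all 4 WT arrays under DEN + PB (0.35 ± 0.17, adjusted p = 0.227). The share of all probes that separated in this way was not counted, so this is given as a value only. The linear model without moderation also called 0 of 11 in both comparisons.

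The order of the 4 group means followed from these values. For Cyp2c55 and Cyp2c65 both PB groups came first, with WT above KO by less than 1 SE, and the DEN groups last, also within 1 SE of each other. For Cyp2c38 the order depended on the probe, with both WT groups first by A_51_P342206 and both KO groups first by A_52_P468564. No tested pair was called for it. For Cyp2c29, Cyp2c39, Cyp2c54 and both Cyp2c37 probes the order was KO DEN + PB, WT DEN + PB, WT DEN and KO DEN, and neighbours of the same treatment were not called as different. For Cyp2c70 and Cyp2c44 KO DEN + PB was the highest group and WT DEN + PB the lowest, with no tested pair called. Pairs of groups that differed in both genotype and treatment were not tested.

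Other Cyp2c genes with a probe were Cyp2c66, which lies next to Cyp2c65, and Cyp2c40, which lies between Cyp2c38 and Cyp2c37. Cyp2c66 rose by 5.18 ± 0.56 in both genotypes (adjusted p = 7.4e-05 in WT and 7.69e-05 in KO). Under DEN its relative signal was low, from 0.0248 to 0.106 in WT and from 0.0272 to 0.0591 in KO. Whether the size of the Cyp2c66 rise depends on the processing was not tested. Its probe was well above background on all 4 WT DEN arrays but on 3 of 4 KO DEN arrays, so 1 baseline value of the KO change was not well above background. Its signal over the 16 arrays had a Pearson r of 0.992 with that of Cyp2c65. After the group means were taken out, r was still 0.904. The same held for A_52_P625249 of Cyp2c37 and Cyp2c54, with r of 0.993 over arrays and 0.899 after group means. These are descriptions over 16 arrays that share scaling and, in such close relatives, possibly probe binding, which was not tested. Cyp2c40 had no call with PB. In WT the relative signal of its brighter probe ran from 91.7 to 125 under DEN and from 61.6 to 82.0 under DEN + PB, without overlap (-0.60 ± 0.17, adjusted p = 0.209), and in KO the change was 0.01 ± 0.17. The difference between these effects was -0.60 ± 0.25 and was not called (adjusted p = 0.734). Under DEN + PB that probe was called higher in KO, by 0.79 ± 0.17 (adjusted p = 0.0113), and the other Cyp2c40 probe was at 0.56 ± 0.19 (adjusted p = 0.0802). All KO arrays lay above all WT arrays for both, and the share of all probes that separated in this way was not counted.

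**Figure D4:**
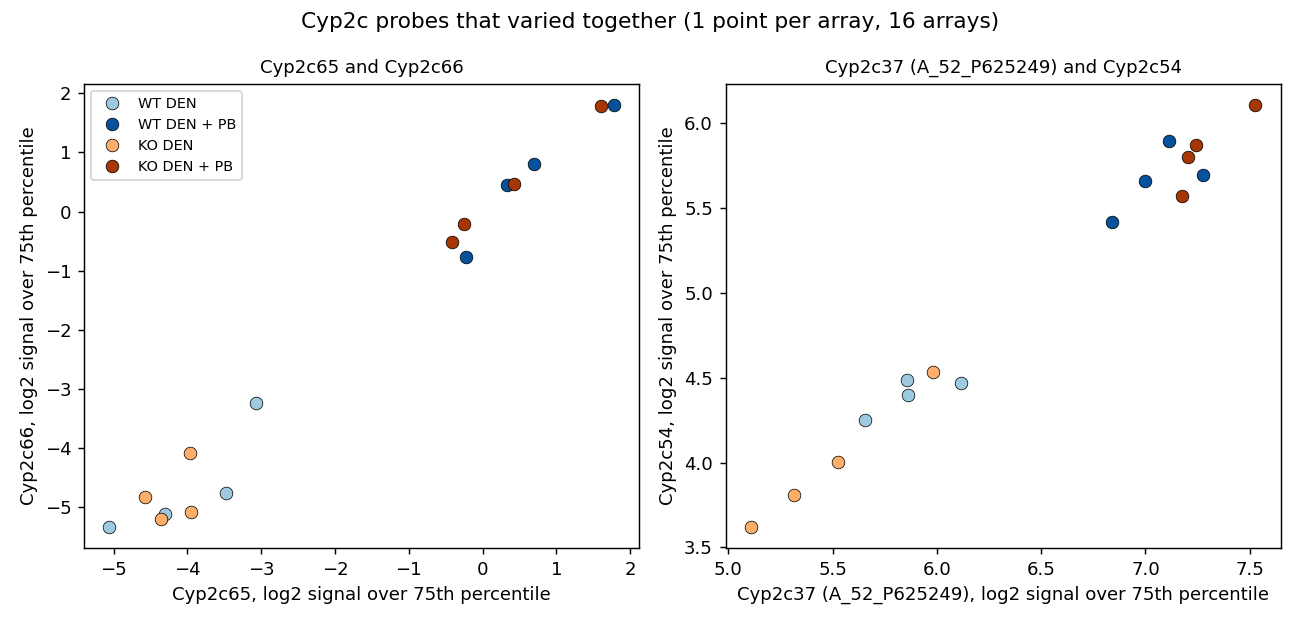
Log2 relative signal of Cyp2c65 against Cyp2c66 (left) and of Cyp2c37 probe A_52_P625249 against Cyp2c54 (right), 1 point per array and coloured by group. The points of each panel lie close to a line, with the DEN + PB arrays at its upper end (r = 0.992 and 0.993 over 16 arrays).

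Outside the family, the genes most like each Cyp2c gene over the 16 arrays were sought among 19371 named probes that passed the filter, for the brightest probe of each gene. Cyp2c55 was most like Cyp2b13 (r = 0.982) and Cyp2b10 (r = 0.981), P450 genes of the family that PB is best known to induce. Cyp2c54 was most like Gna14 (0.977) and Cyp2b9 (0.952), Cyp2c65 like Gstm2 (0.963) and Gna14 (0.958), and Cyp2c29 like Gstm2 (0.975) and Vash1 (0.972). Cyp2c37 was most like Ces2f (0.960) and Sult1c2 (0.958), and Cyp2c39 like Pnliprp1 (0.965) and 1810053B23Rik (0.956). Among genes that were not called, Cyp2c38 was most like Cyp4a10 (0.926) and Cyp4a31 (0.900), fatty acid hydroxylases, Cyp2c70 like Prh1 (0.890) and Slc22a23 (0.887), and Cyp2c44 like Amy1 (0.776) and Selenbp1 (0.769). After group means were taken out, r stayed at 0.907 for Cyp2c38 with Cyp4a10 and at 0.884 for Cyp2c70 with Prh1. It fell to 0.438 for Cyp2c39 with Pnliprp1 and 0.275 for Cyp2c54 with Cyp2b9. For Cyp2c55 it was 0.676 with Cyp2b13 and 0.681 with Cyp2b10, and for Cyp2c65 0.578 with Gstm2 and 0.368 with Gna14. Cyp2c29 kept 0.894 with Gstm2 and 0.827 with Vash1, and Cyp2c37 0.708 with Ces2f and 0.715 with Sult1c2. The other pairs were at 0.567 (Cyp2c39 with 1810053B23Rik), 0.76 (Cyp2c54 with Gna14), 0.870 (Cyp2c38 with Cyp4a31) and 0.864 (Cyp2c70 with Slc22a23). Cyp2c44 had 0.744 with Amy1 and 0.663 with Selenbp1.

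The wider CAR and PXR pathway, a list of 34 genes of receptors, P450 and conjugating enzymes and transporters, had 10 genes called higher with PB in WT and 17 in KO, and 0 lower in either. Over all 13304 genes, taken by their brightest probe, 0.737% were called in either direction in WT and 2.13% in KO. The median change of the list was 0.66 in WT and 0.87 in KO, beside -0.02 and 0.01 over all genes. Its largest rises were those of Cyp2b10 (6.69 in WT and 6.80 in KO) and Cyp2b13 (6.28 and 6.69). Between genotypes, 0 of the 34 genes were called under DEN, where 2.76% of all genes were, and 2 under DEN + PB, where 7.61% were: Akr1b7, an aldo-keto reductase, was higher in KO by 1.74 and Abcc4, an efflux transporter, lower (-0.90).

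In the arachidonic acid and epoxide pathway, which holds the enzymes around the CYP2C products such as soluble epoxide hydrolase (Ephx2) and the Cyp2j and Cyp4 enzymes, none of 17 genes tested was called with PB in either genotype, and the medians were 0.03 in WT and 0.04 in KO. Between genotypes, Cyp2j9 was called higher and Pla2g4a lower in KO under DEN, and under DEN + PB Cyp4f15 was higher (0.64) and Pla2g4a (-1.69) and Alox12 (-0.92) were lower. These were 2 of 17 genes under DEN and 3 of 17 under DEN + PB, where 2.76% and 7.61% of all genes were called. None of 15 bile acid synthesis genes, the pathway of Cyp2c70, was called with PB, with medians of -0.10 and 0.20. Of 10 female-biased liver genes tested, 2 were called higher with PB in WT (Cyp2b9 and Cyp2b13) and 5 in KO. Of 11 male-biased genes 1 was called lower with PB in each genotype, Susd4 in WT (-1.77) and Cyp2u1 in KO (-1.24). Over all genes, 0.737% were called with PB in either direction in WT and 2.13% in KO. Cyp2b9, Cyp2b13, Cyp2a4 and Cyp3a16 are on both the CAR and the female-biased list.

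Some markers of other liver cells were called between genotypes, and some with PB. The marker lists were read under the main processing only. The shares of all genes called, against which the counts below are to be read, were 0.737% with PB in WT, 2.13% with PB in KO, 2.76% between genotypes under DEN and 7.61% under DEN + PB. The summed relative signal of 7 leukocyte and Kupffer cell markers ran from 18.5 to 36.7 in WT DEN, 21.6 to 25.1 in WT DEN + PB, 11.4 to 14.8 in KO DEN and 8.13 to 12.4 in KO DEN + PB, and of the 6 tested 2 were called lower in KO under DEN and 5 under DEN + PB. Of 5 cholangiocyte markers, 2 were called higher with PB in WT (Krt19 and Krt7) and 0 in KO, and under DEN + PB 3 were called lower in KO, Epcam by -1.20, Krt7 by -1.06 and Krt19 by -0.93. With PB in WT, Spp1 (0.76), Epcam (0.64) and Sox9 (-0.40, the other way) were not called. Between genotypes under DEN + PB, Spp1 (-1.03) and Sox9 (-0.22) were not called. Epcam, Spp1 and Sox9 are beyond the genes otherwise named per list. Of 7 periportal hepatocyte markers, 4 were called higher and 1 lower (Cdh1) in KO under DEN + PB, and of 8 pericentral markers 1 rose with PB in each genotype (Rhbg) and 1 was higher in KO under DEN + PB (Slc1a2). Lists for endothelial cells (Pecam1 lower in KO under both treatments), stellate cells (2 of 5 lower in KO under DEN + PB) and pancreatic acinar cells (0 of 3 tested called) were read the same way. Hepatocyte markers had no call in any comparison. Their summed relative signal ran from 756 to 1091 in WT DEN and from 692 to 837 in WT DEN + PB. In KO it ran from 856 to 971 under DEN and from 791 to 1026 under DEN + PB. Their median log2 change with PB was -0.41 in WT and -0.22 in KO, beside -0.02 and 0.01 over all genes. The part of cell makeup and of lobular position in the Cyp2c values was not tested.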

How the data were processed

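Total RNA from 16 livers was labelled with Cy3 and read on Agilent arrays whose design was built on mm9. The authors extracted spots with Agilent Feature Extraction 12, and the deposited intensity (processed signal) is corrected for background within an array and not scaled between arrays. Marks of 0 or 1 for each spot came with these files. The deposited series table holds the same processed signal (largest difference 5e-04 percent). Median spot and background intensity, also deposited by the authors, were used only for normexp (offset 50), since no mean-signal column was used here.

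Outlier spots were dropped, spots of a probe averaged, the log2 signal taken and each array's 75th percentile subtracted. Probes well above background on all 4 arrays of a group were tested (24454 of 41174, 59.4%). Group means of all 16 arrays were fitted with limma 3.58.1 in R 4.3.3, with Benjamini-Hochberg adjustment over all tested probes, and called at 0.05 and 1.5-fold. The method was tested on simulated data. Exact tests are two-sided over 70 assignments. RefSeq names were found for 28223 probes (68.5%). Gene lists used the brightest probe of a gene, naming at most the 2 largest called rises and falls. Promoters were aligned with Biopython 1.88. Members and lists were chosen with earlier results of these data known. The number of arrays limits the precision. Alternatives changed background correction, scaling, filter, blocks, moderation and the arrays used.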

Additional observations from a re-analysis of the deposited data

Results flagged for a closer look

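In 3 of the 44 sets of 4 arrays formed by the 11 Cyp2c probes and 4 groups, 1 array lay far from the other 3 by Dixon's criterion, which chance meets in about 1 of 20 sets. For Cyp2c39 the array WT DEN 4 had a log2 relative signal of 4.5, against 4.77 to 4.79 on the other WT DEN arrays. For the same gene KO DEN 3 was at 5.14, against 4.44 to 4.54. For Cyp2c44 WT DEN 4 was at 5.97, against 6.28 to 6.30. Leaving out any of these arrays changed no call for Cyp2c39 or Cyp2c44.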

How the results depend on the processing

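Among the 11 probes of the listed Cyp2c genes, the count called with PB in WT was 6. It was 1 with normexp, 7 with normexp without outlying local backgrounds, 7 with quantile normalization and 2 on the series table without scaling. The cause was not tested. Under the other alternatives it was 5 or 6, and in KO it was 5 to 7. With single arrays left out it was 5 to 6, the KO count was 7 to 7, and the counts for the difference of PB effects and for KO against WT stayed at 0. In WT, Cyp2c39, A_52_P625249 of Cyp2c37 and Cyp2c54 were not called with normexp (adjusted p = 0.598, 0.426 and 0.278) or on the series table (0.0611, 0.114 and 0.0929). In KO, Cyp2c29 and A_51_P498882 of Cyp2c37 were not called with normexp (0.499 and 0.131) or on the series table (0.227 and 0.0966). All these probes were called in both genotypes with normexp without outlying local backgrounds.

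No sign that turned belonged to a called value. With normexp the difference of PB effects was -0.47 for Cyp2c65 and -0.01 for Cyp2c55, and KO against WT under DEN was -0.08 for A_52_P468564 of Cyp2c38, 0.16 for Cyp2c39, 0.07 for Cyp2c29, 0.18 for Cyp2c44 and 0.12 for A_51_P498882 of Cyp2c37, with Cyp2c55 at 0.19 under DEN + PB. With quantile normalization Cyp2c70 with PB in KO was -0.04, the difference for Cyp2c65 -0.0012, Cyp2c39 under DEN 0.01 and Cyp2c29 under DEN + PB -0.12. With median scaling A_51_P342206 of Cyp2c38 with PB in WT was -0.0018 and the difference for Cyp2c65 -0.0015, and with slide as a block the latter was -0.1. On the series table Cyp2c44 and Cyp2c70 with PB in KO were -0.07 and -0.24, the differences for A_52_P468564, Cyp2c29 and Cyp2c70 were 0.14, 0.14 and 0.12, Cyp2c39 and Cyp2c44 under DEN were 0.01 and 0.0032, and A_52_P625249, Cyp2c54 and Cyp2c29 under DEN + PB were -0.11, -0.17 and -0.24.

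With single arrays left out, the change with PB in WT was -0.07 to 0.29 for A_52_P468564 and -0.06 to 0.27 for A_51_P342206 of Cyp2c38, that in KO -0.07 to 0.22 for Cyp2c70, and the difference for Cyp2c65 -0.31 to 0.49. KO against WT under DEN was -0.6 to 0.07 for Cyp2c65, -0.21 to 0.02 for Cyp2c39, -0.14 to 0.03 for Cyp2c44 and -0.0035 to 0.35 for Cyp2c55, and under DEN + PB -0.73 to 0.07 for Cyp2c65, -0.24 to 0.05 for Cyp2c55 and -0.46 to 0.03 for A_51_P342206. Of 649 values under the other alternatives 604 kept direction and call, as did 851 of 880 with an array left out.

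Replicate numbers did not pair the arrays (24 pairs, r from -0.213 to 0.356). With the replicate block 5 probes of the listed Cyp2c genes were called in WT, without Cyp2c29 (adjusted p = 0.0715), 7 in KO and 0 in the other comparisons. Over all probes the block called 168 in WT and 403 in KO, against 163 and 420 without it. Normexp called 21 and 64, and 21 against 750 for KO against WT under DEN and 50 against 1648 under DEN + PB. Without outlying local backgrounds normexp called 128, 319, 405 and 616 in these 4 comparisons.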
